A study of Mus musculus with 6 samples.

Results

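The interleukin 1 family and its receptors were followed in hearts of Tmbim1 knockout and Flox wild type mice that had undergone aortic banding. The 10 genes were taken by name, namely the agonists Il1a, Il1b, Il18 and Il33, the antagonist Il1rn, the receptors Il1r1, Il1r2, Il1rl1 and Il1rap, and the inflammasome sensor Nlrp3. Every probe set annotated to 1 of these symbols alone was used, which gave 16 of the 38195 probe sets and 9 of the 18029 genes measured. Il1rl1 was not analysed here.

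Total RNA from heart was measured on Affymetrix expression arrays, 1 array per mouse, in 3 Tmbim1 KO mice and 3 Flox wild type mice. All 6 mice were on a C57BL/6 background, 8 weeks old, and had lived for 2 weeks with a surgical constriction of the aorta (written as binding in the labels), which loads the left ventricle with pressure. How Tmbim1, which encodes a membrane protein of endosomes and lysosomes, was deleted, in which cells, and from which litters the mice came is not given in the sources used here. Each value compares genotypes within banded hearts, since unoperated hearts were not analysed here. Tmbim1 had log2 signals of 7.53, 7.49 and 7.56 in knockout hearts, against 8.58, 8.38 and 8.33 in wild type hearts. It was lower in every knockout heart but still read there (limma adjusted p = 0.00579), by 1 probe set whose place relative to the deleted part is not known. All 10 markers of cardiomyocytes were measured, and 0 lay under the lower quartile of every array. The wild type array 3 and the knockout array 1 stood apart in earlier results of these data.

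Interleukin 1 alpha and beta bind the receptor encoded by Il1r1, which then recruits the accessory protein encoded by Il1rap and signals through the adaptor MyD88 and IRAK kinases to the transcription factor NF-kB. Il1rn encodes a secreted antagonist that occupies the receptor without signalling, and Il1r2 a decoy receptor that binds the ligand and does not signal. Interleukin 1 beta and interleukin 18 are made as inactive precursors that caspase 1 cleaves after inflammasomes such as the one built by NLRP3 assemble, so the messenger RNA level does not give the amount of active cytokine. In the heart, interleukin 1 beta is known mainly as a product of myeloid cells, and interleukin 33 as a nuclear alarmin of fibroblasts and endothelial cells.

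Of the 16 probe sets, 1 rose in knockout hearts, that of Il1b, and 0 fell. This was 6.25% of them, against 0.422% of all probe sets past the threshold, a limma adjusted p under 0.05, in either direction and 0.238% higher in knockout hearts. Before adjustment, 2 of 16 had a limma p under 0.05, that of Il1b and 1 of Il1rn, against 10.6% of all probe sets. In 3 of 16 every knockout array lay above every wild type array, against 6.74% of all probe sets, and in 0 of 16 every knockout array lay below, against 8.42%. The 15 probe sets that did not pass had log2 differences, taken as knockout minus wild type, between -0.23 and 0.48, with adjusted p between 0.215 and 0.988. The median over the 16 was 0.10, beside 0.00 over all probe sets.

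**Figure D1:**
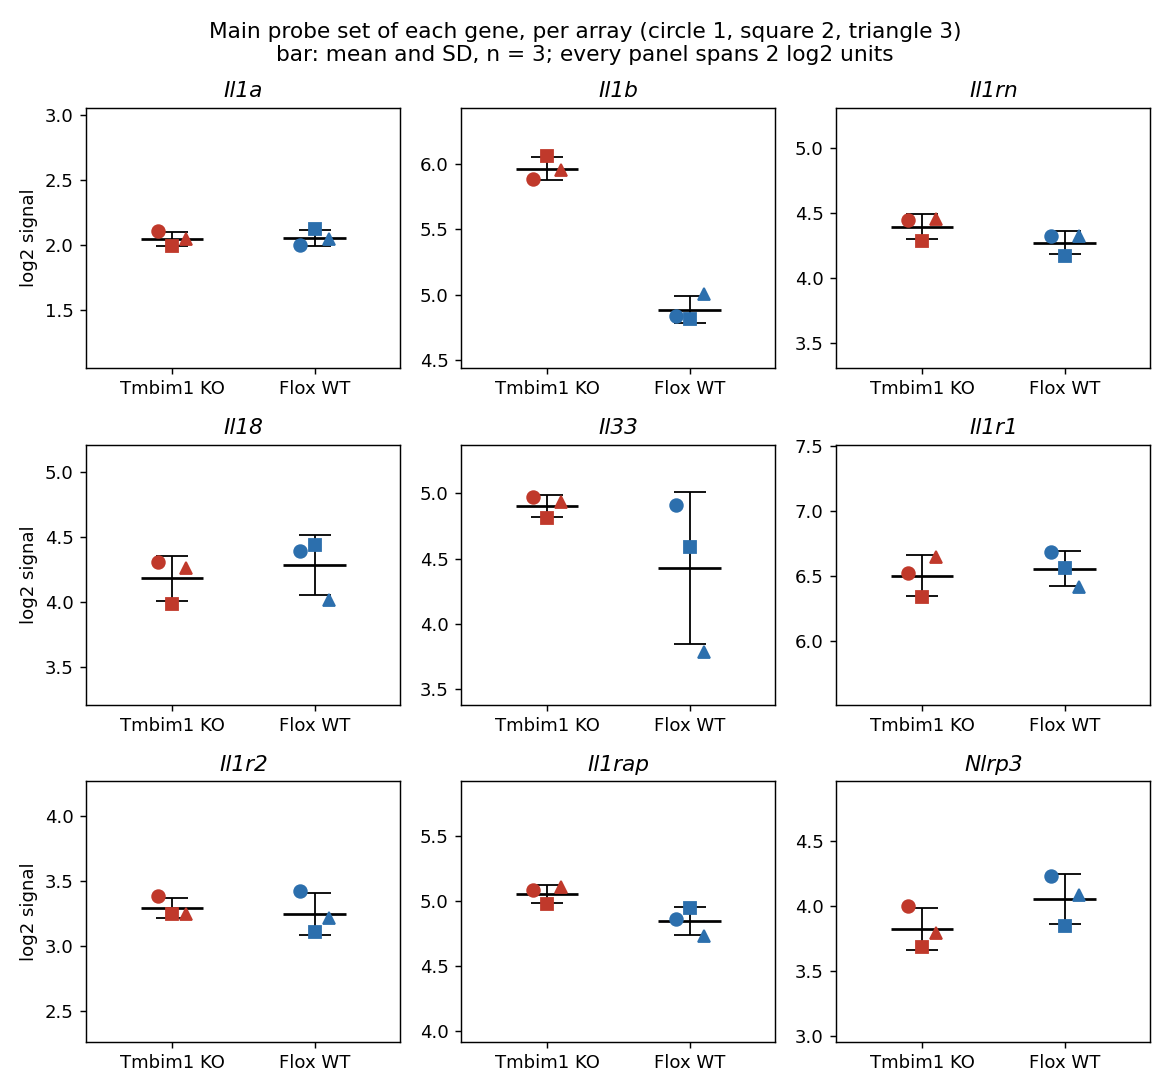
Log2 signal (y axis) of the main probe set of each of the 9 measured genes in the 3 Tmbim1 KO arrays and the 3 Flox wild type arrays. Points are arrays, bars are the mean and SD, and each panel spans 2 log2 units, so that heights compare between panels but levels do not. Il1b is the gene whose groups lie far apart, and Il33 has 1 low wild type array.

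Il1b, which encodes the secreted agonist interleukin 1 beta, was higher in every knockout heart. Its single probe set, 1449399_a_at, read 5.89, 6.06 and 5.95 in knockout hearts, against 4.83, 4.81 and 5.001 in wild type hearts. The lowest knockout array lay well above the highest wild type array, and the arrays within each group were close together. The group means were 5.97 ± 0.09 in knockout hearts and 4.88 ± 0.10 in wild type hearts (SD, n = 3 each). By limma the difference was 1.09 (SE 0.10, 95% interval 0.86 to 1.31, adjusted p = 0.00250), or 2.12-fold higher expression in knockout hearts. It had the 13th smallest p among the 38195 probe sets, and among main probe sets that passed, 39 rose at least as far, Il1b included. By main probe set 1 of 9 genes rose, against 0.322% of all genes, with 2 of 9 (Il1b and Il1rap) wholly above wild type, against 7.34%, and 0 of 9 wholly below, against 9.38%. The mean signal of the probe set lay at percentile 65.8 of all probe sets. These are values of whole heart tissue, in which a larger number of Il1b-expressing cells and more RNA per cell cannot be told apart.

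The call of Il1b did not rest on any 1 heart. With each array left out in turn the difference stayed between 1.04 and 1.14, and the limma adjusted p between 0.00542 and 0.0197. Without knockout array 1 and wild type array 3 together it was 1.18 (adjusted p = 0.0262). By an ordinary two-sample test, which takes the spread of each probe set from its own 6 arrays alone and called 1 of the 38195 probe sets, Il1b did not pass (adjusted p = 0.188).

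Il1a, which encodes the cell-associated agonist interleukin 1 alpha and lies beside Il1b in the order of measured genes on chromosome 2, did not move with it. Its probe set read 2.11, 1.99 and 2.05 in knockout hearts, against 2.00, 2.12 and 2.05 in wild type hearts. The groups overlapped throughout. The difference was -0.01 (95% interval -0.22 to 0.20, limma adjusted p = 0.988). All of these signals were under the lower quartile of every array, which ran from 2.72 to 2.78, so a change in so dim a probe set may be compressed.

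The stretches upstream of the start sites of these neighbouring agonist genes are shown because one rose and the other did not pass. They are the 250 bases before each start, on the minus strand of GRCm38.p6 from RefSeq, at chr2:129371140-129371389 for Il1b and chr2:129309973-129310222 for Il1a, and capitals mark matches to the motifs searched.
Il1b: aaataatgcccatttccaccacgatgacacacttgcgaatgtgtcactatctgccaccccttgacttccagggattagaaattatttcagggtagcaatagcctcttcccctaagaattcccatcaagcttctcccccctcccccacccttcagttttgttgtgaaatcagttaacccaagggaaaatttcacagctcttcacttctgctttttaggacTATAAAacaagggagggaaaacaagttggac
Il1a: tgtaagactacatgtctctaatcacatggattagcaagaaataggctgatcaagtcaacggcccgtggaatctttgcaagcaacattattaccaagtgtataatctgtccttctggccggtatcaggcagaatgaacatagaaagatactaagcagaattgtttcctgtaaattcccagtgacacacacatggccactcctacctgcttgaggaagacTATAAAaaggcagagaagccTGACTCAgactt
Both hold the TATA box letters TATAAA, from -31 to -26 in Il1b and from -32 to -27 in Il1a counted from the start site, a motif found on either strand in 12.4% of 32851 windows of the same length. Il1a also holds TGANTCA, the AP-1 motif, from -12 to -6, which 6.75% of windows have. The NF-kB consensus (7.25% of windows), TGACGTCA of CREB (1.55%), TTGCNNAA of C/EBP (9.56%) and GAGGAAGT of PU.1 (2.44%) were searched on both strands and had no match in either stretch. The matches in Il1a do not overlap one another. These matches are letters in a window, and binding was not measured.

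Il18 and Il33, the other agonists, did not pass. Il18, whose product induces interferon gamma together with interleukin 12, read 4.31, 3.98 and 4.26 in knockout hearts, against 4.39, 4.44 and 4.02 in wild type hearts. The groups overlapped through wild type array 3 alone, since wild type arrays 1 and 2 lay above every knockout array. The difference was -0.10 (95% interval -0.41 to 0.21, limma adjusted p = 0.880), or -0.23 without wild type array 3.

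For Il33, which encodes the alarmin that acts through the receptor ST2, the knockout hearts read 4.98, 4.81 and 4.93 and the wild type hearts 4.91, 4.59 and 3.78. The third wild type heart stood far below the other 5 hearts, and the first lay within the knockout range. The difference was 0.48 (SE 0.23, 95% interval -0.04 to 1.001, limma adjusted p = 0.519), and without wild type array 3 it was 0.16. Of 10 fibroblast markers, 7 were also lowest among the wild type hearts in that heart. The part of cell mix in the Il33 values was not tested.

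The antagonist gene Il1rn has 3 probe sets, which disagreed. The brightest, 1425663_at, read 4.45, 4.29 and 4.45 in knockout hearts, against 4.33, 4.17 and 4.33 in wild type hearts. The groups overlapped, with a difference of 0.12 (95% interval -0.10 to 0.34, limma adjusted p = 0.760). Probe set 1451798_at read 3.31, 3.47 and 3.21 in knockout hearts, against 2.89, 2.97 and 3.04 in wild type hearts. Here the groups did not overlap, and the difference was 0.36 (SE 0.10, 95% interval 0.13 to 0.59), which was not past the threshold after adjustment over all probe sets (limma adjusted p = 0.215). The remaining probe set, 1423017_a_at, averaged 3.77 ± 0.16 in knockout hearts and 3.83 ± 0.18 in wild type hearts (SD, n = 3 each), a difference of -0.06 (limma adjusted p = 0.921). Which transcripts of Il1rn each probe set detects is not given in the sources used here.

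The rise of Il1b was larger than the difference in Il1rn. At their main probe sets the change of Il1b exceeded that of Il1rn by 0.96 on the log2 scale (SE 0.12), and every knockout array stood above every wild type array in this measure. The two-sided exact permutation test over the 6 arrays gave p = 0.1, the smallest that 3 against 3 allows, and 0.2 after adjustment over the 2 pairs tested. With the mean of all probe sets of each gene the value was 0.95.

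**Figure D2:**
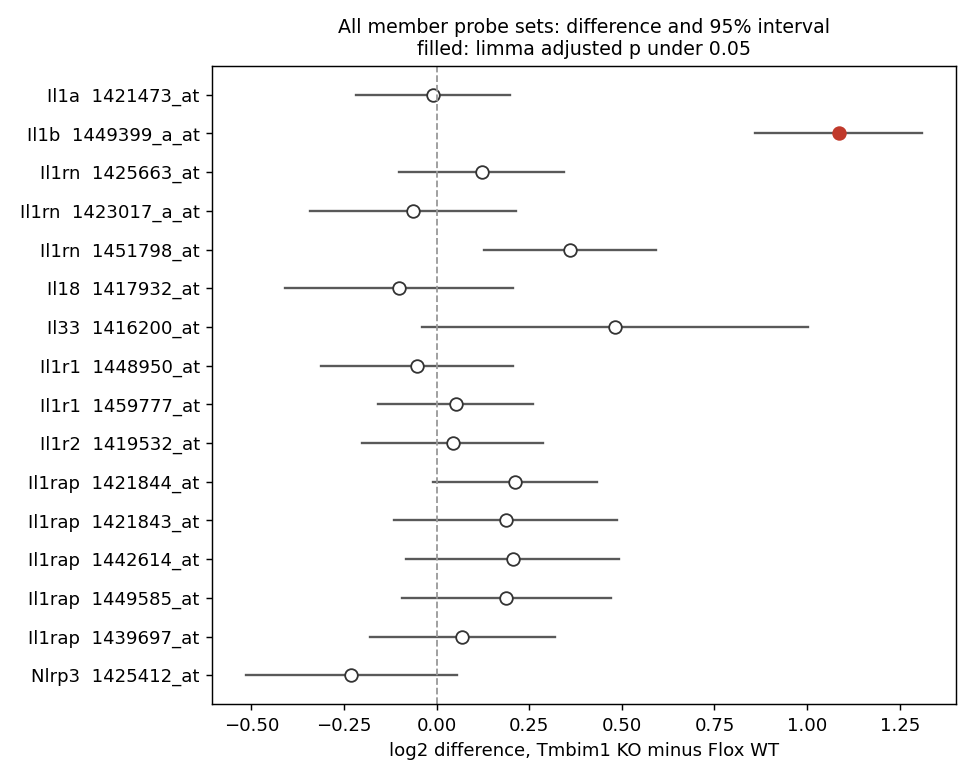
Log2 difference, Tmbim1 KO minus Flox wild type (x axis), for each of the 16 member probe sets (y axis), with its 95% interval from the limma fit, unadjusted. The filled point, Il1b at 1.09, is the one past the adjusted threshold, and apart from Il1b the interval of 1 probe set, Il1rn 1451798_at, lies wholly above 0.

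None of the receptor probe sets passed. Il1r1, the signalling receptor, read 6.53, 6.34 and 6.65 in knockout hearts, against 6.69, 6.57 and 6.42 in wild type hearts at its main probe set. The groups covered nearly the same range, and the difference was -0.05 (95% interval -0.31 to 0.21, limma adjusted p = 0.932), so that at this probe set a rise as large as that of Il1b lies far outside the interval. A second probe set of Il1r1, 1459777_at, was at 0.05 (adjusted p = 0.913) with signals near 1.57, under the lower quartile of every array. For Il1r2, the decoy receptor, the knockout hearts read 3.38, 3.24 and 3.25 and the wild type hearts 3.42, 3.10 and 3.21. These overlapped as well, with a difference of 0.04 (95% interval -0.20 to 0.29, limma adjusted p = 0.944). The change of Il1r2 exceeded that of Il1r1 by 0.10 (SE 0.12), with p = 0.5 in the exact permutation test and 0.5 after adjustment over the 2 pairs.

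Il1rap, the accessory chain that the receptors for interleukin 1 and interleukin 33 share, has 5 probe sets. All 5 had a positive difference, from 0.07 to 0.21, and 0 passed. The brightest, 1421844_at, read 5.08, 4.98 and 5.11 in knockout hearts, against 4.86, 4.94 and 4.73 in wild type hearts. Every knockout heart was above every wild type heart, by a narrow margin. The difference was 0.21 (SE 0.10, 95% interval -0.01 to 0.43), with an unadjusted p of 0.0588 and a limma adjusted p of 0.499. Probe sets 1442614_at (0.21), 1449585_at (0.19) and 1439697_at (0.07) were under the lower quartile of every array, and 1421843_at was at 0.19. The 5 probe sets measure 1 gene in the same hearts and are not independent.

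Nlrp3, the sensor whose inflammasome activates caspase 1, read 4.001, 3.69 and 3.79 in knockout hearts, against 4.23, 3.85 and 4.09 in wild type hearts. The groups overlapped, and the difference was -0.23 (95% interval -0.51 to 0.05, limma adjusted p = 0.593). With each array left out in turn it stayed between -0.33 and -0.14.

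**Figure D3:**
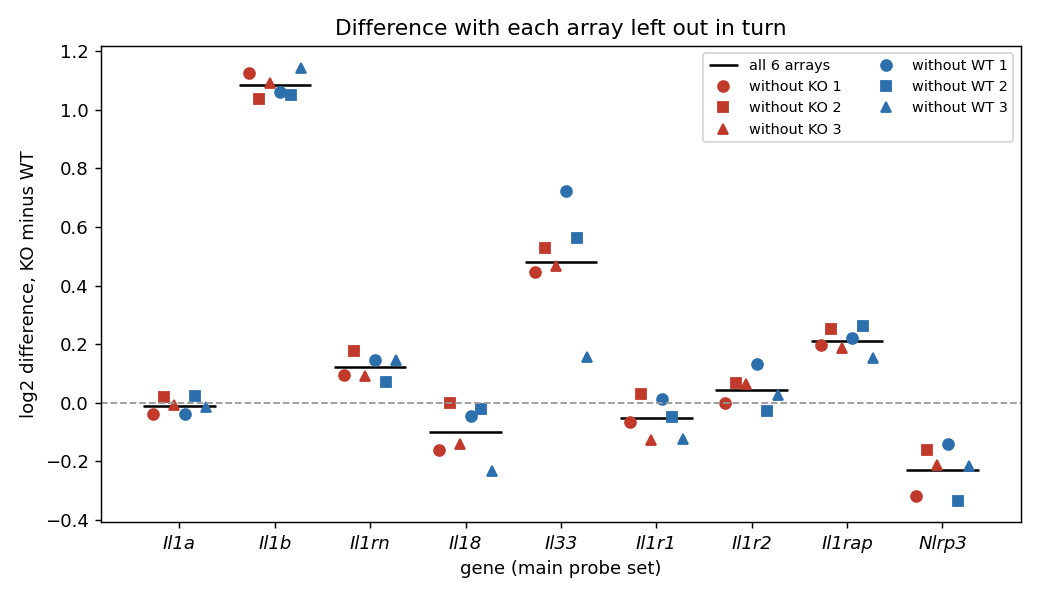
Log2 difference, Tmbim1 KO minus Flox wild type (y axis), of the main probe set of each measured gene (x axis) with all 6 arrays (bar) and with each array left out in turn (points). Il1b stays between 1.04 and 1.14, Il33 drops to 0.16 without wild type array 3, and Il1a, Il1r1 and Il1r2 fall on both sides of 0.

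Il1r2 and Il1r1 lie on chromosome 1, as Tmbim1 does, 168 and 167 measured genes from it. In the order of measured genes they are followed at once by Il1rl2, Il18r1 and Il18rap, which encode receptor chains for interleukin 36 and interleukin 18. The differences of these neighbours were 0.17, 0.01 and -0.05, and 0 of the 5 measured genes of this receptor cluster passed by limma. Il18r1 averaged 1.97 in knockout hearts and 1.96 in wild type hearts, under the lower quartile of every array, so a change in it may be compressed.

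Of 5 further ligand genes of the family 0 passed by limma, beside 0.549% of all main probe sets, and 2 had an unadjusted p under 0.05, beside 11.5%. Their median difference was 0.06, beside 0.00 over all main probe sets. The agonists Il1f6 (0.25, adjusted p = 0.417) and Il1f9 (0.24, adjusted p = 0.466), known now as interleukin 36 alpha and gamma, had every knockout array above every wild type array. This was 2 of 5, beside 7.34% of all main probe sets, and Il1f8 was at -0.10 and Il1f10 at 0.06. The wild type values of Il1f6, 2.59, 2.51 and 2.48, were under the lower quartile of every array, so the size of its difference is uncertain. Of 7 further receptor, decoy and inhibitor genes 0 passed and 0 had an unadjusted p under 0.05, with a median of -0.05. Of these 7, 2 were under the lower quartile of every array, Il18r1 and Il1rapl1. Il1rl2 (0.17), Il1rapl2 (-0.11), Il1rapl1 (-0.08) and Il18rap (-0.05) had the smallest p among them.

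Inflammasome genes did not pass either, with 0 of 11 called by limma and a median of 0.08. Before adjustment 2 of the 11 had a limma p under 0.05, beside 11.5% of all main probe sets. Casp8, the initiator caspase that can also cleave the precursor of interleukin 1 beta, was at 0.30 (adjusted p = 0.386), and the adaptor gene Pycard at -0.24 (adjusted p = 0.591). Casp4, a sensor of cytosolic lipopolysaccharide, was at 0.62 (adjusted p = 0.425) and the channel gene Panx1 at 0.51 (adjusted p = 0.481), and as with Il33 both were lowest in wild type array 3, without which they were at 0.30 and 0.19. Casp1, which cuts the precursors of both cytokines, averaged 4.84 ± 0.08 in knockout hearts and 4.84 ± 0.55 in wild type hearts (SD, n = 3 each). The wild type hearts spanned 4.302 to 5.402, so the interval of its difference was wide, from -0.50 to 0.49.

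Among genes that carry the signal from the receptor to NF-kB and feed back on it, 0 of 16 passed at their main probe set. Of these 16, 3 had an unadjusted limma p under 0.05, beside 11.5% of all main probe sets, and the median was 0.10. The adaptor and kinase genes Myd88 (0.12), Irak2 (0.20), Irak3 (0.14) and Irak1 (-0.09) did not pass. Nfkbiz, a nuclear regulator that interleukin 1 is known to induce, read 5.77, 5.55 and 5.84 in knockout hearts, against 5.21, 5.15 and 5.20 in wild type hearts. The groups did not overlap, and the difference was 0.53 (SE 0.10, limma adjusted p = 0.0787). The NF-kB inhibitor gene Nfkbia was at 0.59 (adjusted p = 0.179), and 1 of its other probe sets, 1420089_at, rose by 0.72 (adjusted p = 0.0239). Tab1, a partner of the kinase TAK1, was at -0.32 (adjusted p = 0.243) with every knockout array below every wild type array, and the NF-kB subunit gene Rela was at 0.22.

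Genes known to be induced by interleukin 1 included 4 that rose and 0 that fell, of 15 measured, with a median difference of 0.29. Over all main probe sets 0.322% were higher and 0.227% lower. The 4 were Il6, Ptgs2, Mmp3 and Ccl2, and by the ordinary two-sample test 0 of 15 passed. All 15 can be induced by other stimuli as well, and these counts do not say which signal acted.

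Il6, the cytokine interleukin 6, read 4.69, 5.71 and 4.68 in knockout hearts, against 2.68, 2.48 and 1.89 in wild type hearts. All wild type values were under the lower quartile of every array, so the size of the rise of 2.68 (SE 0.28, limma adjusted p = 0.00485) is uncertain. Ptgs2, the inducible prostaglandin synthase, read 5.46, 5.09 and 4.99 in knockout hearts, against 3.64, 3.41 and 3.20 in wild type hearts, and rose by 1.76 (SE 0.15, limma adjusted p = 0.00124). Its other, dimmer probe set was at 0.23 and did not pass. Il6 and Ptgs2 kept their calls with any single array left out.

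Mmp3, the matrix protease stromelysin, rose by 0.93 (SE 0.15, limma adjusted p = 0.0405), and Ccl2, the chemokine that draws monocytes, by 0.81 (SE 0.13, limma adjusted p = 0.0352). Both had every knockout array above every wild type array. Mmp3 lost its call with any single array left out (adjusted p 0.0526 to 0.154), and Ccl2 kept it only without knockout array 1 (0.0282; otherwise up to 0.166). Of the 11 that did not pass, Lcn2, which encodes the iron-binding protein lipocalin 2, had the largest difference, 0.99 (limma adjusted p = 0.354), with 4.65, 4.66 and 6.30 in knockout hearts, against 4.02, 4.25 and 4.38 in wild type hearts. The groups did not overlap, and 1 knockout heart stood far above the rest. The chemokine gene Cxcl1 was at 0.23 at its main probe set and at 0.47 and 0.72 at its other 2 (limma adjusted p = 0.206 and 0.176), each with every knockout array above every wild type array. The adhesion genes Vcam1 (0.57) and Icam1 (0.44) were lowest in wild type array 3, without which they were at 0.28 and 0.18. Cxcl2 (0.29), Nos2 (0.26), Saa3 (0.14), Sele (0.03) and Mmp9 (-0.13) did not pass either.

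**Figure D4:**
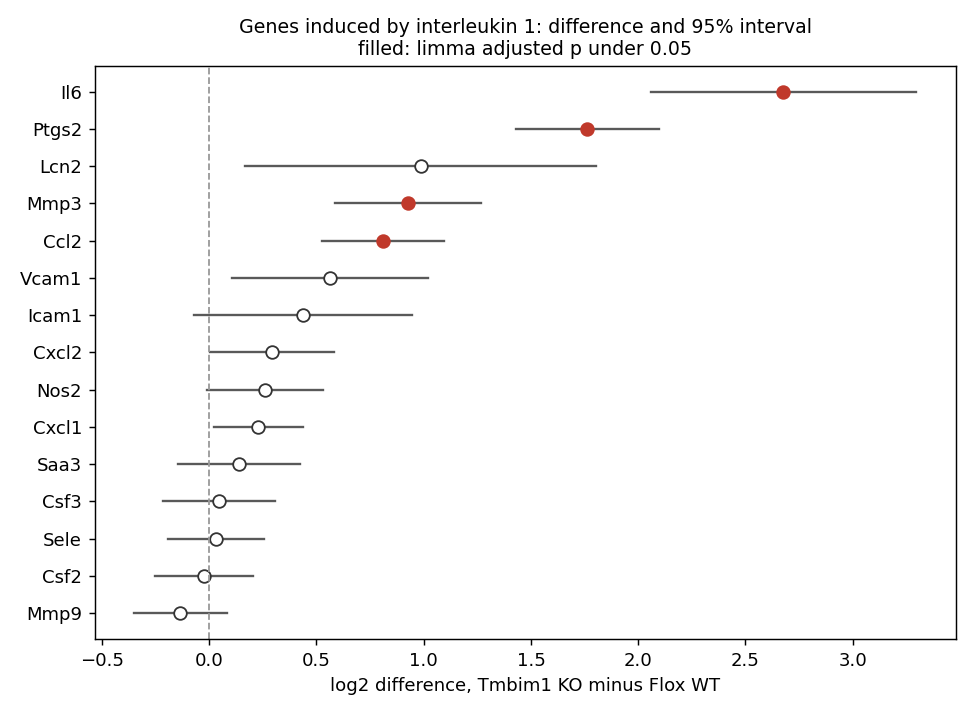
Log2 difference, Tmbim1 KO minus Flox wild type (x axis), of the main probe set of the 15 genes listed as induced by interleukin 1 (y axis), with 95% intervals from the limma fit, unadjusted. Filled points are the 4 genes past the adjusted threshold, from Il6 at 2.68 to Ccl2 at 0.81, and the genes at the bottom lie around 0.

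The genes whose profile over the 6 arrays was most like that of Il1b were Nppb, Tnf, Rasl11b, Ccl4 and Ier3. Likeness was the root mean square difference between log2 values, each probe set centred on its own mean, so it favours genes with a difference of about the same size. Nppb, the B-type natriuretic peptide gene of stressed cardiomyocytes, was nearest at 0.07, with 13.30, 13.29 and 13.23 in knockout hearts, against 12.08, 12.18 and 12.24 in wild type hearts. Next were Tnf, the cytokine tumour necrosis factor, at 0.11, Rasl11b, a gene of a small GTPase of the Ras family, at 0.11, Ccl4, a chemokine gene, at 0.13, and Ier3, an immediate early gene, at 0.16. Their differences between genotypes ran from 0.96 for Rasl11b to 1.23 for Ier3, beside 1.09 for Il1b. These genes were picked for that likeness, which is a description of 6 arrays.

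Atrial markers aside, among markers of macrophages, neutrophils, mast cells, lymphoid cells, fibroblasts, endothelium and muscle, S100a9 was the 1 gene with a larger difference than Il1b. Of 13 macrophage and monocyte markers 0 passed by limma, with a median difference of 0.25 (0.15 without wild type array 3) and none under the lower quartile of every array. Their summed linear signal ran from 3821 to 4332 in knockout hearts and from 2946 to 3860 in wild type hearts, which overlap. Of the 13 differences, 10 were positive and 3 negative. Before adjustment 5 of the 13 had a limma p below 0.05, beside 11.5% of all main probe sets. In 4 of 13 every knockout array lay above every wild type array, beside 7.34%. The largest differences were those of C1qb (0.45), C1qa (0.42) and Fcgr1 (0.40). Csf1r, the receptor that defines these cells, was at 0.09 and Ccr2, a marker of recruited monocytes, at -0.11. The part of macrophage number in the rise of Il1b was not tested.

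Of 10 neutrophil markers 0 passed, the median was 0.06, and the summed signal ran from 198 to 245 in knockout hearts and from 160 to 172 in wild type hearts. This gap lay in S100a9 (1.32, adjusted p = 0.0641) and S100a8 (0.95, adjusted p = 0.109), while the other 8 ranged from -0.03 for Mpo to 0.16 for Ngp. S100a8 passed with the array numbers as a replicate block (adjusted p = 0.0441) and without knockout array 1 (adjusted p = 0.0204), and S100a9 without that array and wild type array 3 together (adjusted p = 0.0410). Mast cell markers, relevant to interleukin 33, had 0 of 9 called and a median of 0.05, with 6 differences positive and 3 negative. The largest were those of Cma1 (-0.56, adjusted p = 0.218) and Kit (-0.34, adjusted p = 0.541). In 1 of 9, Cma1, every knockout array lay below every wild type array, against 9.38% of all genes. Of the 9, 2 were under the lower quartile of every array, and the 3 over percentile 40 of mean signal had a median of -0.34. Markers of type 2 innate lymphoid and regulatory T cells had 0 of 8 called and a median of -0.02. Fibroblast markers had 0 of 10 called and a median of 0.35 (0.19 without wild type array 3). Of their differences 8 were positive and 2 negative, and before adjustment 6 had a limma p below 0.05, beside 11.5% of all main probe sets. Gsn, lower in knockout hearts at -0.34, was among these 6. Endothelial markers had 0 of 10 called and a median of -0.03, and skeletal muscle markers 0 of 9 and -0.10. Cardiomyocyte markers had 0 of 10 called and a median of -0.13, but all 10 differences were negative. In 8 of these 10 every knockout array lay below every wild type array, against 9.38% of all genes. The summed cardiomyocyte signal did not overlap, at 83149 to 85628 in knockout hearts and 90215 to 93186 in wild type hearts.

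Genes of tissue stress and handling, like Il1b, stood higher in the knockout group. Of 10 heat shock and immediate early genes 3 rose, Hspa1b, Hspa1a and Atf3, against 0.322% of all genes, and the median was 0.72. Of the 3 calls 2 were left without knockout array 1 or without any 1 wild type array. The same held with the replicate block, the robust variance prior or weights per array. All 3 stayed without knockout array 2 or 3. Without knockout array 1 and wild type array 3 together 0 were left, and the median was 0.68. In 8 of 10 every knockout array lay above every wild type array, against 7.34% of all genes. Their summed signal was 9928 to 10037 in knockout hearts and 7137 to 7232 in wild type hearts, but Hspb1 alone, which did not pass (adjusted p = 0.128), made up 73.0% to 77.3% of it in knockout hearts and 76.8% to 79.8% in wild type hearts. Their part in the rise of Il1b, Il6 and Ptgs2 was not tested. Atrial markers, by contrast, differed within the knockout group, with a summed signal from 10856 to 34418 in knockout hearts and from 3972 to 6810 in wild type hearts. Of the 7 atrial markers 1 passed, Nppa (limma adjusted p = 0.0496), with a list median of 1.19. With single arrays left out, Nppa passed only without wild type array 3. It read 13.78, 13.63 and 13.36 in knockout hearts, against 12.67, 12.67 and 11.85 in wild type hearts. Myl7, Sln and Myl4 read 12.86, 12.17 and 12.98 in knockout array 1, against 3.90, 2.68 and 4.83 in knockout array 2. Without knockout array 1 the list median was 0.19. Il1b read 5.89, 6.06 and 5.95 in knockout arrays 1, 2 and 3. The part of atrial tissue in the rise of Il1b was not tested.

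**Figure D5:**
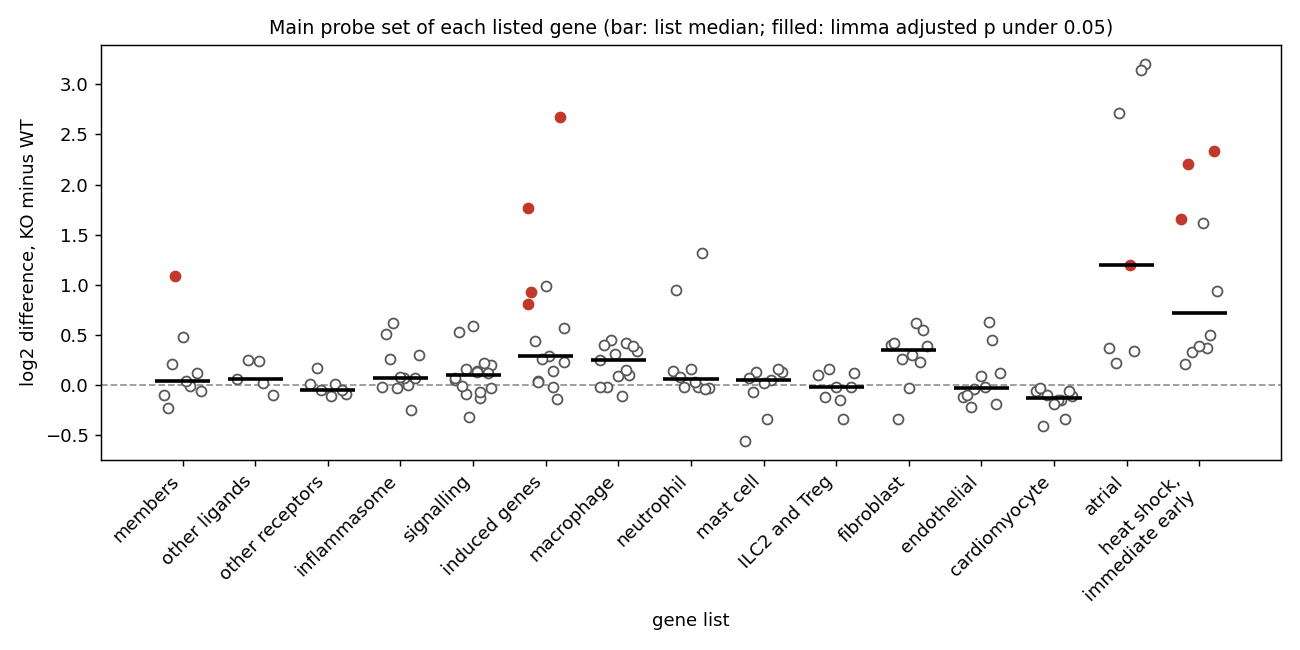
Log2 difference, Tmbim1 KO minus Flox wild type (y axis), of the main probe set of each gene in the family, pathway and cell marker lists (x axis). Bars are list medians and filled points passed the adjusted limma threshold, and among the family and pathway lists such points occur at Il1b and at 4 induced genes.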

How the data were processed

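The authors deposited a log2 signal for each probe set. RMA, which subtracts background, quantile normalizes the arrays and summarises probes, and limma are named per the submitters' processing notes, without versions or settings in the sources used here. Quantile normalization removes any overall shift between arrays, whose medians lay between 4.24 and 4.28, and array scans and detection calls were not analysed here. The 13 control probe sets were left out. The supplied platform annotation gave 34325 probe sets 1 symbol, 62 several and 3808 none, and 0 symbols changed on lookup by Entrez identifier.

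The genotypes were compared by limma 3.58.1 in R 4.3.3 (lmFit, eBayes) on the deposited log2 values of all 38195 probe sets, two-sided, with Benjamini-Hochberg adjustment over all of them at 0.05. Adjusted p-values are from this fit. Differences are knockout minus wild type, from n = 3 mice each. The main probe set of a gene is the one with the highest mean. Named were all member probe sets, the called genes of each pathway list or else the 4 with the smallest p, and the 5 genes most like Il1b. Further genes of the lists were named as examples after their values were seen. Members and lists were chosen with earlier results of these data known, so they give no independent support. Gene order and upstream sequences came from RefSeq tables of GRCm38.p6, in which 9 of 9 measured member genes had an entry. The code was tested on simulated data. The same numbers in the sample titles were not taken as pairs, and what they mark is not given in the sources used here. The number of arrays limits the precision of every value.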

Additional observations from a re-analysis of the deposited data

How the results depend on the processing

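Alternatives changed the samples (each array left out in turn, 2 arrays left out together), the model (number as a replicate block, variance prior with a trend or robust, weights per array), the scaling (quantile normalization once more, or centring on array medians) and the probe sets tested (those over percentile 40 of mean signal, or 1 per gene). Il1b kept its direction and its call in these 15, with differences from 1.04 to 1.18 and limma adjusted p from 0.00128 to 0.0262, and 1 member probe set passed in each. By an ordinary two-sample test, run for the members after seeing the data, Il1b lost its call (difference 1.09, adjusted p = 0.188), 0 member probe sets passed and 0 of the 15 induced genes passed. None of the other 15 member probe sets passed under any alternative. With single arrays left out, differences near 0 changed sign for Il1a (-0.039 to 0.023), Il1rn 1423017_a_at (-0.16 to 0.026), Il1r1 (-0.13 to 0.031) and Il1r2 (-0.027 to 0.13), and Il1r2 was at -0.019 without knockout array 1 and wild type array 3 together. The count of 161 probe sets over all genes was 38 to 86 with single arrays left out, 29 without those 2 arrays, 102 among main probe sets alone and 1, lower in knockout hearts, by the ordinary two-sample test. Same-numbered arrays deviated together only weakly (correlations 0.06, 0.14 and 0.02 over probe sets), so the numbers were not taken as pairs. With the replicate block 168 probe sets passed and the adjusted p of Il1b was 0.0111. The permutation within numbers gave p = 0.25 for Il1b minus Il1rn and p = 0.75 for Il1r2 minus Il1r1. The smallest p that this permutation allows is 0.25, so it could not pass the threshold. The 4 calls among induced genes became 3 with the replicate block and 2 or 3 with single arrays left out, an alternative run for the lists after seeing the data. The dimmest probe sets were not tested under the filter, and the pair of Il1rl1 and Il33 was not run.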
